A study of Mus musculus with 10 samples.

Results

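The lung's alveolar capillaries are built from a pair of endothelial cell types, and 10 genes that mark them were read in whole-lung RNA: 5 of general capillary cells (Aplnr, Gpihbp1, Plvap, Kit and Ptprb) and 5 of aerocytes (Car4, Ednrb, Apln, Prx and Fibin). The genes were chosen by symbol, from knowledge of these cell types and with earlier results of these data known. All 10 were found among the 27179 Entrez genes of the deposited table. General capillary cells are the smaller, progenitor-like cells of the alveolar network, which regulate vessel tone and can give rise to new endothelium. Aerocytes are large, thin, net-like cells apposed to the alveolar type 1 epithelium, where gas exchange takes place. The cells are linked by apelin, a peptide that aerocytes make from Apln and that general capillary cells receive through the receptor encoded by Aplnr. The alveolar epithelium in turn supplies the vessels with growth factors such as VEGF-A.

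The samples were whole lungs of 10 mice, each a separate animal and library. The 5 Flox mice (numbers 2 to 6) carried floxed alleles of the gene for IRE1α, Ern1, on both chromosomes with an unmodified Shh locus (Shh +/+ IRE1α fl/fl). The 5 EpithelialKO mice (17, 18, 20, 21 and 22) carried the same floxed alleles with Cre on 1 copy of Shh (Shh Cre/+ IRE1α fl/fl). IRE1α is the endoplasmic reticulum stress sensor that splices Xbp1 mRNA, and Shh-driven Cre acts in the lung epithelium, so the capillary cells themselves are expected to keep their floxed alleles intact. No group carried Cre without floxed alleles, so effects of Cre or of the altered Shh locus cannot be told apart from those of the deletion. Age, sex and batch are not in the labels. Flox mice 4 and 6 had 3949 and 4866 counts of Xist, the RNA of the inactive X chromosome, and 0 counts over 4 Y-linked genes. In the other 8 mice Xist ranged from 2 to 61 and the Y-linked sum from 2462 to 3575. By these counts Flox mice 4 and 6 were female and the other 8 mice male. Sex was therefore unbalanced between the groups, and values without Flox mice 4 and 6 are given below.

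None of the 10 genes passed an adjusted p of 0.05 in edgeR's quasi-likelihood test of EpithelialKO against Flox, where 6, or 0.0392%, of the 15301 genes tested did. All of the differences below are therefore given as values and not as changes. The general capillary genes Plvap, Aplnr and Ptprb were furthest below Flox in EpithelialKO lungs, at 0.707, 0.704 and 0.703 of the Flox level, and among the aerocyte genes Ednrb was furthest from it, at 0.735. Gpihbp1 and Car4 stood nearest to the Flox level, at 1.02 and 0.931 of it. At an unadjusted p under 0.05, 6 of the 10 genes were lower, against 6.52% of all genes tested, and 0 were higher, against 5.87%. The DESeq2 Wald test, which called 279 genes in all, called 4 of the 10 lower (Plvap, Ptprb, Aplnr and Ednrb), against 1.10% of all genes tested. Limma-voom with sample weights, which called 29 in all, called Plvap lower, against 0.111% of all genes tested. Since the genes were chosen with earlier results known, these shares are a description and not independent support. In a whole lung, fewer cells of a type and less RNA per cell cannot be told apart.

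The level of a gene is given as CPM, its count relative to library size after TMM scaling, and for a comparison between genes it was divided by the length of its merged exons. On that scale of CPM per kilobase Plvap was highest in Flox, at 281 ± 21.6 (SD, n = 5), followed by Car4 at 131 ± 11.1 and Gpihbp1 at 87.2 ± 11.1. Ptprb (56.3 ± 8.77), Prx (46.4 ± 5.95) and Fibin (40.2 ± 5.08) came next, with SDs that overlapped between neighbours. Kit (20.0 ± 4.97), Apln (19.0 ± 4.30) and Ednrb (16.7 ± 1.43) did not differ beyond their spread, and Aplnr was lowest at 13.2 ± 1.72 CPM per kilobase. Neither set was therefore uniformly more abundant. In EpithelialKO the order was the same except that Apln (16.6 ± 3.00) stood before Kit (15.6 ± 4.96), again within their spread. Every gene had at least 484 counts in every mouse, so counting error was small beside the spread between mice.

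**Figure D1:**
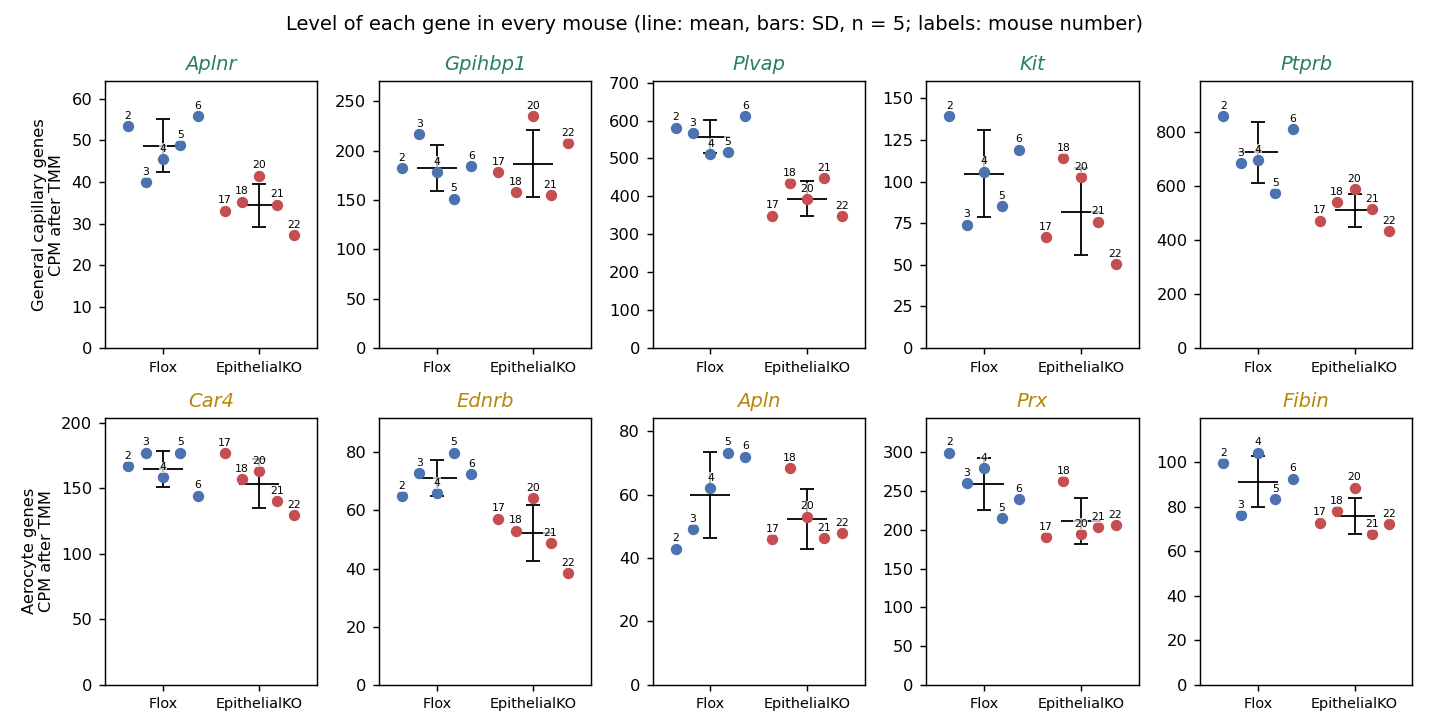
CPM after TMM scaling of each gene in each of the 10 mice, with a panel per gene, general capillary genes above and aerocyte genes below; points are mice with their numbers, the horizontal line is the group mean and bars are the SD (n = 5). The groups do not overlap in Plvap and Ednrb, and overlap in the other 8 genes.

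Among the general capillary genes, Plvap encodes the protein of the diaphragms that span endothelial fenestrae and caveolae (Entrez 84094, GRCm38 chromosome 8, 71497753 to 71511806). Its level in Flox mice 2 to 6 was 581, 567, 511, 518 and 612 CPM, and in EpithelialKO mice 17, 18, 20, 21 and 22 it was 349, 434, 393, 448 and 348 CPM. The highest EpithelialKO mouse stayed below the lowest Flox mouse. The group means were 558 ± 42.9 and 394.5 ± 46.5 CPM (SD, 5 mice each). EpithelialKO over Flox was -0.50 ± 0.10 (SE) in log2 and missed the threshold at an edgeR adjusted p of 0.0598. Its adjusted p was 0.0345 without Flox mouse 5, 0.0318 with no count filter and 0.0411 in limma-voom, and 0.340 without Flox mice 4 and 6, where its log2 fold change was -0.49; over all alternatives it ran from 0.000502 to 0.340.

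Ptprb encodes the endothelial receptor phosphatase VE-PTP, which removes phosphate from the angiopoietin receptor TIE2 (Entrez 19263, chromosome 10, 116275502 to 116389538). Flox mice 2 to 6 had 858, 685, 696, 572 and 809 CPM, and the EpithelialKO mice in the same order as above had 471, 541, 588, 515 and 432 CPM. All 5 EpithelialKO mice lay below the Flox mean, and EpithelialKO mouse 20 lay above Flox mouse 5, the single point of overlap. The log2 fold change was -0.51 ± 0.12 (SE, edgeR adjusted p = 0.108). Without Flox mouse 5 it was -0.58 at an edgeR adjusted p of 0.0339. Without Flox mice 4 and 6 it was -0.47 at an edgeR adjusted p of 0.501. Over all alternatives the adjusted p ran from 0.00558 in the DESeq2 Wald test to 0.501. Aplnr, the apelin receptor (Entrez 23796, chromosome 2, 85136360 to 85139923), had 53.6, 39.9, 45.6, 48.9 and 55.9 CPM in Flox and 33.1, 35.3, 41.6, 34.6 and 27.3 CPM in EpithelialKO. The groups overlapped only in Flox mouse 3 and EpithelialKO mouse 20. Its log2 fold change was -0.51 ± 0.13 (SE, edgeR adjusted p = 0.125), with a 95% interval from -0.77 to -0.24. Without Flox mice 4 and 6 it was -0.465 at an edgeR adjusted p of 0.513.

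Kit, the receptor tyrosine kinase for stem cell factor (Entrez 16590, chromosome 5, 75574987 to 75656722), had 139.5, 74.2, 106, 85.5 and 119 CPM in Flox and 66.8, 114, 103, 75.9 and 50.4 CPM in EpithelialKO. Relative to its mean it varied more between mice of a group than any other of the 10 genes, and its groups overlapped widely. The log2 fold change was -0.36 ± 0.23 (SE, edgeR adjusted p = 0.560), ranging from -0.51 without EpithelialKO mouse 18 to -0.22 without EpithelialKO mouse 22. It was -0.23 without Flox mouse 2 and -0.28 without Flox mice 4 and 6. Mast cells also express Kit. Of 6 mast cell genes, Tpsab1 was at 0 counts in every mouse. Cpa3 stood at 6.59 and 5.32 CPM in Flox and EpithelialKO, Cma1 at 2.25 and 3.38 CPM, Mcpt4 at 0.793 and 1.36 CPM and Tpsb2 at 0.615 and 0.594 CPM. Hdc, the histidine decarboxylase that other leukocytes also express, stood at 97.9 and 115 CPM. None of the 5 tested passed in edgeR, 0 had an unadjusted p under 0.05, and DESeq2 and limma-voom called 0.

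Gpihbp1 anchors lipoprotein lipase to the capillary wall (Entrez 68453, chromosome 15, 75596630 to 75598213), and it was the general capillary gene that did not lie lower. It had 183, 217, 178, 151 and 184.5 CPM in Flox and 178, 158, 235, 155 and 207 CPM in EpithelialKO, with both the highest and the second lowest of the 10 values in EpithelialKO. The means were 183 ± 23.3 and 187 ± 34.2 CPM (SD, n = 5 each), and the log2 ratio of 0.03 ± 0.12 (SE; edgeR adjusted p = 0.955) had a 95% interval from -0.23 to 0.29. That interval does not reach the value of the other general capillary genes Plvap, Ptprb and Aplnr, although the difference between the genes was not tested. Its sign turned negative in 4 alternative fits, with values from -0.064 to -0.009. Without Flox mice 4 and 6 the log2 fold change was 0.026.

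**Figure D2:**
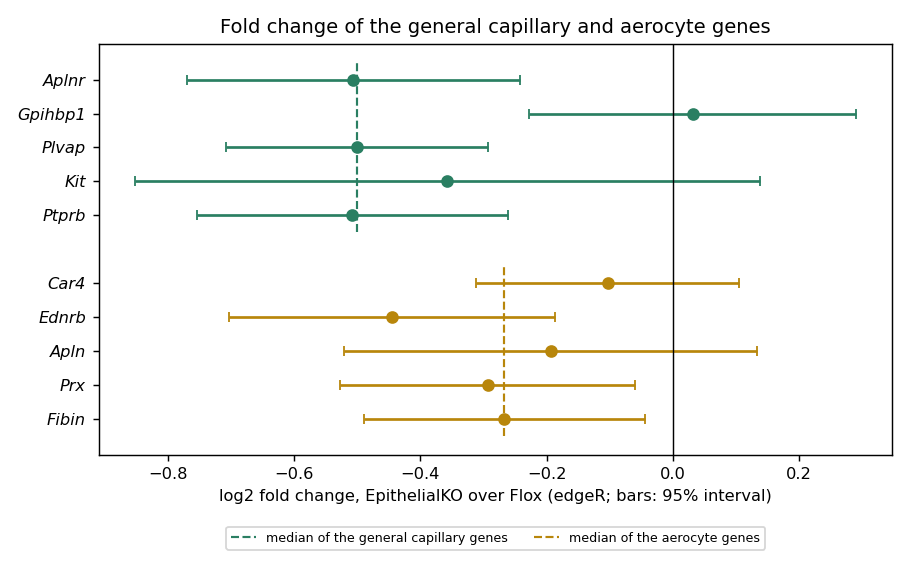
Log2 fold change of EpithelialKO over Flox for each of the 10 genes from edgeR, with bars for the 95% interval; dashed lines mark the median of the 5 general capillary genes (-0.50) and of the 5 aerocyte genes (-0.27). The intervals of Gpihbp1, Kit, Car4 and Apln include 0 and those of the other 6 genes lie below it.

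Of the aerocyte genes, Car4 encodes a membrane-anchored carbonic anhydrase that interconverts CO2 and bicarbonate at the capillary surface (Entrez 12351, chromosome 11, 84957754 to 84966054). Flox mice had 167, 177, 158, 177 and 144 CPM and EpithelialKO mice 177, 157, 163, 140.4 and 129.5 CPM. The ranges overlapped over most of their width. The log2 fold change was -0.10 ± 0.10 (SE, edgeR adjusted p = 0.718; 95% interval -0.31 to 0.11). It ran from -0.16 without EpithelialKO mouse 17 to -0.05 without EpithelialKO mouse 22, and it was -0.18 without Flox mice 4 and 6. Ednrb, the endothelin B receptor that clears endothelin and signals nitric oxide release (Entrez 13618, chromosome 14, 103814615 to 103844508), had 64.8, 72.8, 65.9, 79.9 and 72.6 CPM in Flox and 57.2, 53.0, 64.2, 48.8 and 38.4 CPM in EpithelialKO. Here the groups did not overlap, by a margin of less than 1 CPM between EpithelialKO mouse 20 and Flox mouse 2. Its log2 fold change was -0.44 ± 0.12 (SE, edgeR adjusted p = 0.154). Without Flox mice 4 and 6 it was -0.47 at an edgeR adjusted p of 0.513. Stromal and neural crest cells also express Ednrb, and their part in its level was not tested. Plvap and Ednrb were thus the 2 of the 10 genes whose EpithelialKO values all lay below the Flox values, against 1.48% of all genes tested, and none of the 10 lay wholly above, against 1.63%.

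Apln, the apelin ligand, is X-linked (Entrez 30878, chromosome X, 48025146 to 48034853). It had 42.9, 49.0, 62.1, 73.2 and 71.9 CPM in Flox and 45.9, 68.4, 53.0, 46.2 and 47.9 CPM in EpithelialKO. The lowest and the highest mouse were both Flox. The log2 fold change was -0.19 ± 0.15 (SE, edgeR adjusted p = 0.651), and it was -0.07 without Flox mice 4 and 6, the mice with high Xist, -0.11 without Flox mouse 5 and -0.12 without Flox mouse 6. It was -0.31 without EpithelialKO mouse 18 and -0.29 without Flox mouse 2. Prx encodes periaxin, a PDZ protein known best from the Schwann cell membrane (Entrez 19153, chromosome 7, 27499305 to 27520041). It had 299.7, 260.5, 279.8, 215 and 239.6 CPM in Flox and 190.3, 262, 194, 203 and 206 CPM in EpithelialKO. EpithelialKO mouse 18 alone lay among the Flox mice, and the other 4 were below all of them. Its log2 fold change was -0.29 ± 0.11 (SE, edgeR adjusted p = 0.282) and -0.38 without mouse 18. Without Flox mice 4 and 6 it was -0.29.

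Exons of Prx overlap the antisense gene Gm15541 in the GENCODE M21 annotation, and no strand setting of the counting is given in the labels, so reads of these genes may be shared. Fibin, a secreted protein first described in fin bud development (Entrez 67606, chromosome 2, 110360925 to 110362993), had 99.4, 76.0, 104, 83.3 and 92.5 CPM in Flox and 72.7, 77.9, 88.5, 67.5 and 72.1 CPM in EpithelialKO. All 5 EpithelialKO mice were below the Flox mean of 91.1 CPM, with overlap between the groups. Its log2 fold change was -0.27 ± 0.11 (SE, edgeR adjusted p = 0.304), at an unadjusted edgeR p of 0.0221. Without Flox mice 4 and 6 it was -0.19, at an unadjusted edgeR p of 0.155.

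Sequence upstream of the start was available for 6 of the 10 genes in the RefSeq promoter table (build GRCm38.p6), and it had no entry for Aplnr, Gpihbp1, Plvap and Ptprb. Car4 and Apln are shown because they are aerocyte genes at clearly different levels per length whose 250 bases before the start hold no annotated exon. Capitals mark GGAA or its reverse complement TTCC, the core bound by ETS factors such as ERG and FLI1 of endothelial cells. The Car4 window is chr11:84957504-84957753 on the plus strand and the Apln window is chrX:48034854-48035103 on the minus strand, each written 5′ to 3′ in the direction of transcription.
Car4: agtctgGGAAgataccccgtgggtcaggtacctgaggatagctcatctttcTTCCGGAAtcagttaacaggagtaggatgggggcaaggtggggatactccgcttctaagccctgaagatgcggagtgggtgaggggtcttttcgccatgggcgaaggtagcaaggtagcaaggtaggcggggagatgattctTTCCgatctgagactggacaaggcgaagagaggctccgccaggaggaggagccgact
Apln: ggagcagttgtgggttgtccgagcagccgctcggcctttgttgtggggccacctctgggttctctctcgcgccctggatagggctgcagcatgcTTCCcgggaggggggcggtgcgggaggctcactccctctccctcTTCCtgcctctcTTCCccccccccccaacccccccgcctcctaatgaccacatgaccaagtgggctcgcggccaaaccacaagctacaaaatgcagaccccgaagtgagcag
The Car4 window held 4 matches, 2 on each strand, of which a TTCC and a GGAA stand next to each other. The Apln window held 3, all on the opposite strand. Fibin had 4, Prx 5, Ednrb 2 and Kit 1. Such a match is common: 93.4% of the 32851 promoters of the table had at least 1 in the same window, with a median of 3, so these counts describe the windows and are not evidence of binding.

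The gene sets were then read side by side, with no test of the difference between them. The median log2 fold change was -0.50 over the general capillary genes, 4 of 5 negative, and -0.27 over the aerocyte genes, 5 of 5 negative. Over all genes tested the median was 0.000843 and 49.9% were negative. Each set held 3 genes at an unadjusted p under 0.05, all lower, against 6.52% of all genes tested. Each also held 1 gene whose EpithelialKO values all lay below Flox, against 1.48%. Without Flox mice 4 and 6 the medians were -0.47 and -0.19, and 3 general capillary and 2 aerocyte genes were lower at an unadjusted p under 0.05, against 4.12% of the 15722 genes tested there.

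Each set was then averaged per mouse in log2 CPM. The general capillary mean in Flox mice 2 to 6 was 7.86, 7.57, 7.63, 7.49 and 7.83, and in the EpithelialKO mice 7.19, 7.43, 7.55, 7.29 and 7.07. The aerocyte mean was 6.74, 6.71, 6.83, 6.82 and 6.79 in Flox and 6.52, 6.69, 6.63, 6.41 and 6.35 in EpithelialKO. The aerocyte means of the groups did not overlap, with Flox within a narrow band (SD 0.053) and EpithelialKO spread wider (SD 0.145), while the general capillary means overlapped through Flox mouse 5 and EpithelialKO mouse 20. The difference between groups was -0.37 for the general capillary and -0.26 for the aerocyte mean on the log2 scale.

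Subtracting the aerocyte mean from the general capillary mean in the same mouse removes whatever scales both alike. This gap was 1.12, 0.86, 0.80, 0.67 and 1.04 in Flox and 0.67, 0.74, 0.92, 0.89 and 0.72 in EpithelialKO. Flox mouse 5 and EpithelialKO mouse 17 had the lowest gaps, and the groups overlapped throughout the EpithelialKO range. The means were 0.90 ± 0.18 and 0.79 ± 0.11 (SD, n = 5 each), and their difference of -0.11 was smaller than the SD between Flox mice. It was -0.17 without Flox mouse 5, -0.06 without Flox mouse 2 and -0.099 without Flox mice 4 and 6. No p is given for the gap, since its genes were chosen with results known. The difference also depended on the summary: with the median gene of each set in place of the mean it was 0.285, because in all 10 mice the median general capillary gene was Gpihbp1 and the median aerocyte gene was Fibin.

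**Figure D3:**
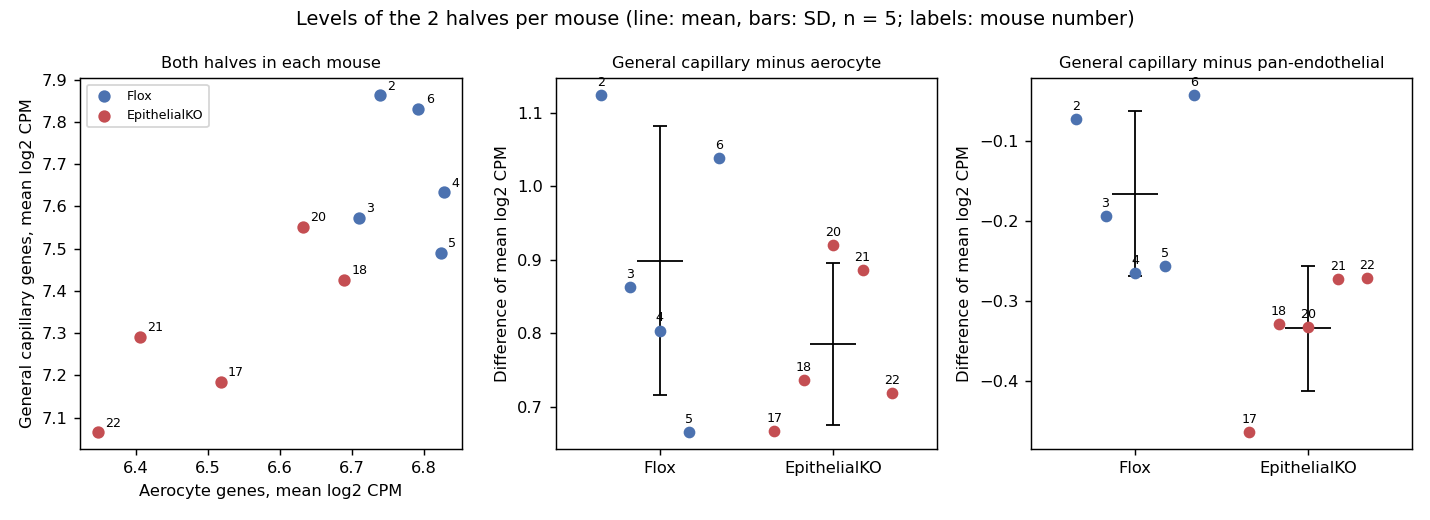
Left, log2 CPM with a prior count of 2, averaged over the 5 general capillary genes, against that of the 5 aerocyte genes, 1 point per mouse; middle, their difference per mouse; right, the general capillary mean minus the mean of 15 pan-endothelial genes; lines are group means and bars the SD (n = 5). EpithelialKO mouse 22 is lowest in both sets, the gap overlaps between the groups, and the right panel separates them by less than 0.01.

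Genes listed as pan-endothelial give the scale on which to read this, though the list shares Sox17 with the artery and vein list. The 15 pan-endothelial genes had their median at -0.21 in log2, 13 of them negative. In edgeR 0 passed. At an unadjusted p under 0.05, 5 were lower, against 6.52% of all genes tested, and 0 higher, against 5.87%. DESeq2 called Tie1 lower, against 1.1% of all genes tested, and limma-voom called none. Tie1, an orphan receptor of the angiopoietin system, had -0.40 ± 0.11 (SE), Robo4 -0.30 ± 0.13, and the adhesion molecule Pecam1 -0.26 ± 0.11. Of the other abundant ones the claudin Cldn5 had -0.37 ± 0.17 and the receptor Calcrl -0.14 ± 0.20. The mean log2 CPM of the 15 genes was 7.84 ± 0.08 in Flox and 7.64 ± 0.21 in EpithelialKO (SD, n = 5 each), with overlapping groups. Relative to it, the general capillary mean was -0.17 ± 0.10 in Flox and -0.33 ± 0.08 in EpithelialKO, and the groups did not overlap, though Flox mouse 4 at -0.265 and EpithelialKO mouse 22 at -0.272 nearly met. The aerocyte mean relative to the pan-endothelial genes was -1.07 ± 0.10 and -1.12 ± 0.10, and overlapped.

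A wider set of genes linked to each cell type was read the same way. Of 12 further general capillary genes 11 were negative, with a median of -0.30. At an unadjusted p under 0.05, 6 were lower, against 6.52% of all genes tested, and 1 was higher, against 5.87%. None passed in edgeR or limma-voom. DESeq2 called 1 lower, the ligand Bmp6 (148 to 104 CPM, -0.52 ± 0.12, SE), against 1.1% of all genes tested. Its groups did not overlap, and EpithelialKO lay wholly below Flox in 1.48% of all genes tested. The chemokine Cxcl12 had -0.41 ± 0.14 and the TIE2 receptor gene Tek -0.34 ± 0.12. Among the most abundant, the hypoxia-inducible factor gene Epas1 had -0.24 ± 0.11, Cd93 -0.25 ± 0.11 and the semaphorin Sema3c -0.17 ± 0.14. The one higher was Lpl, lipoprotein lipase, the enzyme that GPIHBP1 carries, at 274 and 324 CPM (0.24 ± 0.10; edgeR adjusted p = 0.331).

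Of 12 further aerocyte genes 11 were also negative, with a median of -0.33, close to that of the wider general capillary list. At an unadjusted p under 0.05, 7 were lower, against 6.52% of all genes tested, and 0 higher, against 5.87%. None passed in edgeR or limma-voom. DESeq2 called 3 lower, Adgrl2, Kdr and Tbx2, against 1.1% of all genes tested. The adhesion receptor gene Adgrl2 (90.5 to 62.8 CPM, -0.53 ± 0.12, SE) and the transcription factor Tbx2 (205 to 142 CPM, -0.53 ± 0.16) had groups that did not overlap. EpithelialKO lay wholly below Flox in 1.48% of all genes tested. The VEGF receptor Kdr had -0.45 ± 0.11. The most abundant differed less: Emp2, which type 1 epithelium also expresses, had -0.11 ± 0.13, Igfbp7 -0.04 ± 0.10 and Pmp22 0.14 ± 0.10. The order of the medians of the 5-gene sets, general capillary below aerocyte, was thus not seen in the wider lists.

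Ligands and partners of the 10 genes were mixed. Of 13 tested, 9 were negative, with a median of -0.25. At an unadjusted p under 0.05, 6 were lower, against 6.52% of all genes tested, and 0 higher, against 5.87%. None passed in edgeR or limma-voom. DESeq2 called 1 lower, against 1.1% of all genes tested. This was Ednra, the endothelin A receptor of muscle cells (39.1 to 27.1 CPM, -0.53 ± 0.14, SE). Its groups did not overlap, and EpithelialKO lay wholly below Flox in 1.48% of all genes tested. Of the endothelin system, the converting enzyme Ece1 had -0.33 ± 0.10, whereas the ligands Edn1 and Edn3 had 0.21 ± 0.21 and 0.09 ± 0.21. Of the VEGF system, the receptor Flt1 had -0.41 ± 0.12 and the ligand Vegfa, largely made by alveolar epithelium, had -0.07 ± 0.09 at 520.4 and 497 CPM. The KIT ligand gene Kitl had -0.25 ± 0.09. The ligands of TIE2, Angpt1 and Angpt2, had -0.34 ± 0.11 and -0.54 ± 0.19. The fatty acid transporter Cd36 had -0.18 ± 0.10. Apela, the other ligand of the apelin receptor, and Drp2, a partner of periaxin, were at 0.0758 and 0.216 CPM in Flox, too low to test.

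**Figure D4:**
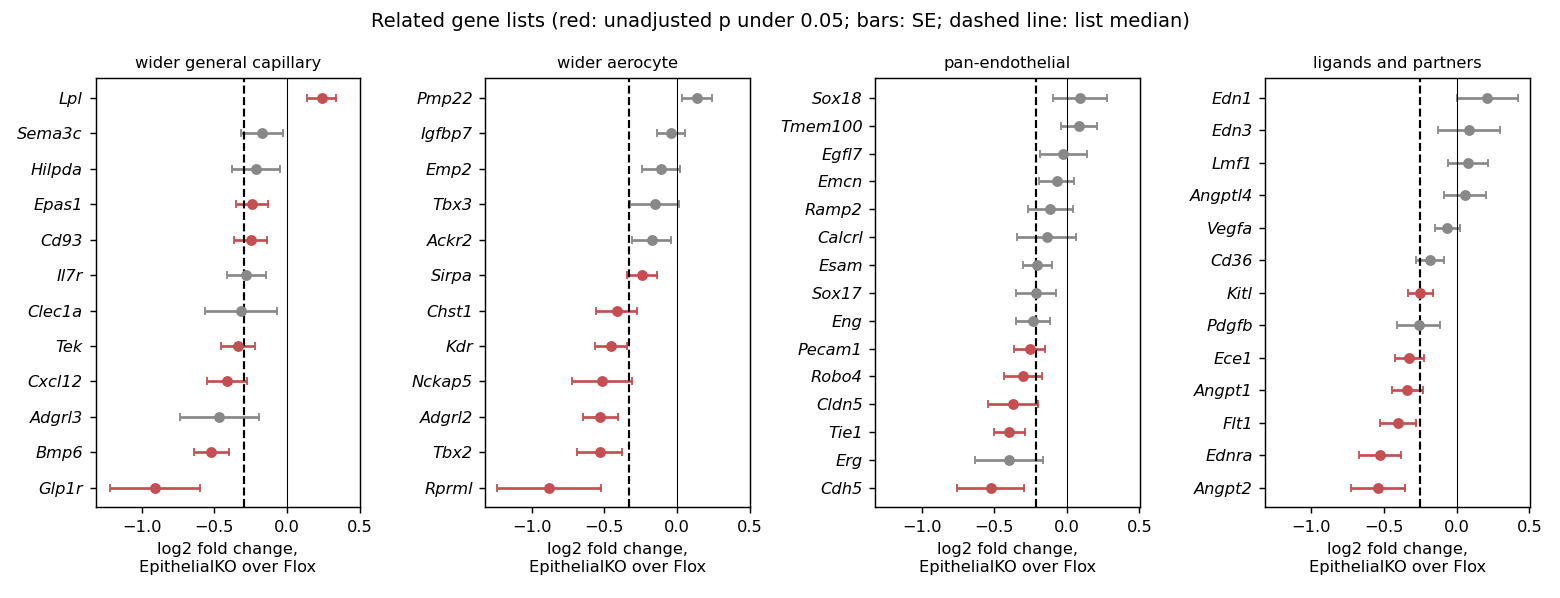
Log2 fold change of EpithelialKO over Flox with its SE for the tested genes of the wider general capillary, wider aerocyte and pan-endothelial lists and of the ligands and partners; red points have an unadjusted edgeR p under 0.05 and the dashed line is the list median. Most points of every list lie left of 0, and the medians lie between -0.33 and -0.21.

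The ratio of receptor to ligand of the apelin pair, Aplnr over Apln in CPM and not scaled for length, was 1.25, 0.815, 0.734, 0.667 and 0.778 in Flox mice 2 to 6. In EpithelialKO it was 0.722, 0.516, 0.784, 0.747 and 0.569. The groups overlapped, at 0.848 ± 0.230 and 0.668 ± 0.118 (SD, n = 5 each), and Flox mouse 2, which had the lowest Apln of all mice, stood apart from the other Flox mice.

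How the genes varied between mice of the same group was examined from each mouse's deviation from its group mean in log2 CPM. These are Pearson correlations over 10 mice, given as a description, in genes that share libraries and scaling. Within the general capillary set the 10 gene pairs had a median r of 0.53, with Aplnr and Kit at 0.835, Kit and Ptprb at 0.83 and Aplnr and Ptprb at 0.71. Gpihbp1 was the exception, with r from -0.23 to 0.25 against the other 4. Within the aerocyte set the median r was 0.05, and the highest was that of Car4 and Ednrb at 0.73. Between the sets it was 0.13 over 25 pairs, with Kit and Fibin highest at 0.70. The aerocyte genes thus did not vary as a unit between these mice, and Prx had r = -0.13 with the mean of the other 4.

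**Figure D5:**
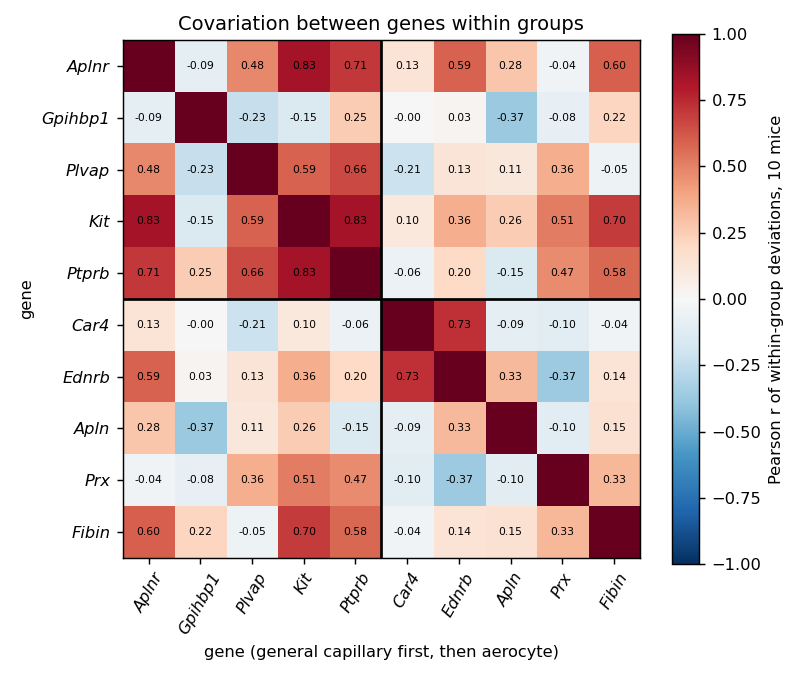
Pearson r between the within-group deviations of the 10 genes in log2 CPM over 10 mice, with both axes listing general capillary genes first and aerocyte genes second, separated by the black lines. Aplnr, Plvap, Kit and Ptprb form a block with r from 0.48 to 0.835, Gpihbp1 lies between -0.37 and 0.25 with the other 9 genes, and the aerocyte pairs lie between -0.37 and 0.73.

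Several of the genes followed the pan-endothelial mean in the same deviations: r was 0.87 for Kit, 0.80 for Aplnr, 0.76 for Ptprb, 0.70 for Fibin and 0.67 for Ednrb, against 0.12 for Gpihbp1 and 0.16 for Apln. Of all other genes tested, those most like the general capillary mean were Nfkb1 (r = 0.96), Pxk (0.96), Adgre5 (0.95) and Trp53 (0.94). Those most like the aerocyte mean were Map3k1 (0.93), Lsm14b (0.92), Med1 (0.92) and Tbx21 (0.91). With 10 mice and 15301 genes these highest values are picked from many. EpithelialKO mouse 22 had the lowest level of the 10 mice in 6 of the 10 genes (Aplnr, Plvap, Kit, Ptprb, Car4 and Ednrb) and the lowest pan-endothelial sum, 3378 CPM, against 4100 to 5378 CPM in the others. Its sum of the wider aerocyte genes, 3238 CPM, was in contrast the highest of the EpithelialKO mice. Its sums of the AT2 and AT1 genes described below, 68210 and 7417 CPM, were the highest of all mice. Without EpithelialKO mouse 22 the medians were -0.43 for the general capillary and -0.25 for the aerocyte genes.

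Markers of other cells were summed per mouse. The sum of 7 AT2 genes, of the surfactant-making alveolar cells, was 45460 to 54810 CPM in Flox and 55180 to 68210 CPM in EpithelialKO, without overlap. Most of this sum came from Sftpc, at means of 32980 and 39100 CPM, and Lyz2, at 10590 and 13150 CPM. None of the 7 passed in edgeR, DESeq2 or limma-voom. At an unadjusted p under 0.05, 5 were higher, against 5.87% of all genes tested. The sum of 8 AT1 genes, of the epithelium that aerocytes appose, was 5026 to 6639 and 4483 to 7417 CPM, with a median log2 fold change of -0.0073 and 0 genes at an unadjusted p under 0.05. Fibroblast genes (7) summed to 963 to 1433 CPM in Flox and 816 to 914 CPM in EpithelialKO, again without overlap. At an unadjusted p under 0.05, 5 of them were lower, and 6.52% of all genes tested were lower at that level. Pericyte genes (6) summed to 177.6 to 222 and 127.6 to 211 CPM, with 3 lower at that level, and smooth muscle genes (6) to 355 to 462 and 269 to 479.5 CPM, also with 3. Artery and vein genes (12) summed to 1106 to 1352 and 941 to 1107 CPM, with 3 lower, and lymphatic genes (6) to 400.5 to 547 and 330 to 513 CPM, with 1 lower. Most of the lymphatic sum came from Lyve1, at means of 297 and 276 CPM, and Pdpn, at 115.5 and 116.5 CPM. The AT1 list also holds Pdpn. The counts lower at an unadjusted p under 0.05 in these lists stand beside the same 6.52%. In edgeR and limma-voom 0 genes of these lists passed. DESeq2 called lower 3 fibroblast, 2 pericyte, 1 smooth muscle, 3 artery and vein and 1 lymphatic gene, against 1.1% of all genes tested. Summed cardiac muscle (77.9 to 207 and 56.2 to 224 CPM), adipocyte (49.9 to 251 and 62.7 to 215 CPM) and red cell genes (1155 to 4856 and 2189 to 5482 CPM) overlapped between the groups and held 0 genes at an unadjusted p under 0.05. The part of any of these in the levels of the capillary genes was not tested.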

How the data were processed

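Whole-lung RNA of 10 mice was sequenced. Trizol RNA was enriched for poly(A) transcripts with oligo(dT) and copied from random hexamers, per the labels' protocols. Reads were processed with cutadapt and HISAT2 on GRCm38, per the submitters' processing notes; for versions, counting tool, annotation and strand setting the sources used here give none. Deposited counts are whole numbers for each Entrez gene and mouse, not normalized as far as the values show, with 14983829 to 21224412 counts per mouse. Symbols and coordinates came from RefSeq of GRCm38 (25275 of 27179 genes matched), and exon lengths from the GENCODE M21 basic annotation. No pair of libraries was alike within counting noise (lowest chi-square per degree of freedom 17.0), so each counted as 1 sample.

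Genes kept by filterByExpr (15301) were scaled by TMM, and edgeR 4.0.16 gave quasi-likelihood F tests in R 4.3.3 (robust, group as the only term), with Benjamini-Hochberg adjustment over all genes and a threshold of 0.05. SEs were derived from the F statistic. Per-mouse means used log2 CPM with a prior count of 2 and have no test. Alternatives were DESeq2 size factors, upper-quartile scaling, DESeq2 1.42.0, limma-voom with sample weights (limma 3.58.1) and 2 other filters. Further ones were a prior count of 0.5, the median over genes, and leaving out each mouse or Flox mice 4 and 6.

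The test was checked on simulated data for EpithelialKO against Flox (15301 genes). It recovered 30.4% of planted 1.5-fold changes, 71.5% of 2-fold and 89.6% of 4-fold changes, and 5.9% of its calls were false. The genes, lists and alternatives were chosen with earlier results of these data known. By the rule for named genes, all 10 genes are given, all genes of the mast cell list, and the 4 genes most correlated with each set. Of the wider general capillary, wider aerocyte, pan-endothelial and partner lists, the 3 lowest p and 3 most abundant are given. The rule also asked for named genes in the other cell-type lists. These are given by sums instead, with only Sftpc, Lyz2, Lyve1 and Pdpn named. A further list is not reported here. Lpl, Edn1, Edn3, Kitl, Angpt1, Angpt2, Apela and Drp2 were named after their values were seen.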

Additional observations from a re-analysis of the deposited data

Results flagged for a closer look

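Of 34 groups of 5 mice examined for a mouse far from the rest, 2 held one, and chance alone gives about 1 in 20. Prx in EpithelialKO mouse 18 was at 262.4 CPM, while the other 4 EpithelialKO mice were between 190.3 and 206.4 CPM. The ratio of Aplnr to Apln in Flox mouse 2 was 1.247, while the other 4 Flox mice were between 0.667 and 0.815.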

How the results depend on the processing

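No paired analysis was possible because the groups share no mouse numbers. Against 6 genes in the edgeR fit of all 10 mice, the number past the threshold over all genes was 7 with DESeq2 size factors, 8 with upper-quartile scaling, 6 with the 1 CPM filter, 34 with no count filter, 29 in limma-voom and 279 in the DESeq2 Wald test. Leaving out 1 mouse gave 0 to 48 in edgeR; the 48 came without Flox mouse 5, and each of the other 9 fits gave 0 (1444 to 1960 by unadjusted p under 0.05). It was also 0 without Flox mice 4 and 6, with 1207 at an unadjusted p under 0.05. The median log2 fold change lay between -0.521 and -0.433 for the general capillary genes and between -0.309 and -0.187 for the aerocyte genes over all alternatives. The gap between the sets differed by -0.172 to -0.057 when 1 mouse was left out and by 0.285 with the median gene. Gpihbp1 turned negative in limma-voom (-0.017) and without Flox mouse 5 (-0.029), EpithelialKO mouse 20 (-0.064) or EpithelialKO mouse 22 (-0.009). When 1 mouse was left out it ran from -0.064 to 0.10. The other 9 genes kept a negative sign in all alternatives. With 5 mice per group the spread between mice, not counting depth, limits these values.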
